A study of Mus musculus with 16 samples.

Results

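The 10 genes described here carry the glucagon signal through the hepatocyte, from the glucagon receptor through the stimulatory G protein, adenylyl cyclase and protein kinase A to CREB and its coactivator, with the phosphodiesterases that end the signal. They are Gcgr, Gnas, Adcy6, Adcy9, Prkaca, Prkar1a, Creb1, Crtc2, Pde4d and Pde3b. They were taken by symbol from the deposited count table and make up 10 of its 41079 genes. Liver RNA was sequenced from C57BL/6J mice aged 20 to 22 months, with 4 males and 4 females lacking a Cre transgene (CRE-) and 4 males and 4 females with a liver-specific deletion of the receptor (LKO). All 16 mice carried a Gcgr allele with loxP sites, and the LKO mice also carried an Albumin-Cre transgene, which is active in hepatocytes. The controls therefore lacked the Cre transgene itself as well as the deletion, and no mice with Cre and an unmodified Gcgr were among the libraries. Reads counted on genes ranged from 33268424 to 56488920 per library, with a median of 44288170 in male CRE-, 38475729.5 in male LKO, 46840916 in female CRE- and 37348750.5 in female LKO.

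Glucagon is released from pancreatic alpha cells during fasting and acts mainly on the liver, where its receptor raises cyclic AMP through the stimulatory G protein and adenylyl cyclase. Cyclic AMP frees the catalytic subunits of protein kinase A (PKA) from their regulatory subunits, and the kinase phosphorylates CREB while the coactivator CRTC2 moves to the nucleus. Together these factors are known to induce genes of glucose production such as Pck1 and G6pc1, and phosphodiesterases break cyclic AMP down again.

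The labels were first set against markers of hepatocytes. Of 8 markers, 7 had an entry in the table, Tf being the one without, and all 7 were read in every library. Albumin (Alb) was the most abundant at a mean of 70690 CPM (reads of a gene scaled to library size), and the 7 markers summed to between 48900 CPM in female LKO replicate 1 and 129200 CPM in female CRE- replicate 4. RNA of hepatocytes was thus read at a high level in every library. Several other cell types were also read, and their values stand beside the results of the same livers. In bulk tissue, fewer cells of a type and less RNA per cell cannot be told apart.

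Levels of different genes were compared as RPKM, which divides CPM by the length of the exons,, averaged over the 16 livers. Gnas stood highest at 52.3 ± 7.57 RPKM (SD, n = 16). Gcgr followed at 50.9 ± 15.02 RPKM (SD, n = 16), which differed from Gnas by less than the spread of either gene. The near equality depended on the exon length, which is 9024 bases for Gnas and 2932 for Gcgr. In CPM, Gnas had a mean of 471.9 and Gcgr of 149.2. Prkar1a at 39.8 ± 3.27 RPKM lay within the wide spread of Gcgr but outside its own. Prkaca reached 28.8 ± 6.54 RPKM, and the gaps on both sides of it were larger than the SDs of its neighbours. Pde3b at 12.4 ± 4.41 RPKM and Crtc2 at 11.3 ± 1.77 RPKM could not be ordered beyond their spread. The cyclases came lower, Adcy6 at 3.52 ± 1.47 RPKM and Adcy9 at 2.94 ± 0.843 RPKM, again within their spread of each other. Creb1 followed at 1.96 ± 0.475 RPKM. Pde4d was the lowest at 0.334 ± 0.107 RPKM, a value that divides by 29791 exon bases, since the table joins the exons of every annotated transcript of this long gene. All 10 genes passed the filter on low counts, and the fewest reads on any of them in a library were 291, on Pde4d.

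LKO was compared with CRE- within each sex in a joint fit of the 16 libraries, and a gene was called at an adjusted p under 0.05, from edgeR's quasi-likelihood test and adjusted by the method of Benjamini-Hochberg across 16742 genes (hereafter the edgeR adjusted p). In males, 0 of the 10 genes were called, beside 76 of all 16742 (0.454%), and DESeq2 likewise called 0 of the 10, with 0 of the 10 at an unadjusted edgeR p under 0.05. In females, 1 of the 10, Gcgr, was called, beside 710 of all genes (4.24%); DESeq2 called 2 of the 10, and 3 were under 0.05 before adjustment. Averaged over the sexes, edgeR called 0 of the 10 beside 478 of all genes (2.86%); DESeq2 called 1, and 2 of the 10 were under 0.05 before adjustment. The difference between the female and the male fold change, tested as an interaction, was called by edgeR for 0 of the 10 and for 0 of all genes (0%), with 2672 genes at an unadjusted p under 0.05, 3 of them among the 10, and 371 called by DESeq2, 0 of them among the 10. Between female and male CRE- livers, edgeR called 0 of the 10 beside 154 of all genes (0.92%); DESeq2 called 1, and 3 of the 10 were under 0.05 before adjustment. The median size of the log2 fold change was 0.27 over the 10 genes in males against 0.27 over all genes tested, and 0.22 against 0.34 in females. Apart from Gcgr in females, edgeR thus called none of the 10 in any comparison. The median size of their fold changes was close to that of all genes tested in males and smaller in females. The genes were not matched for level of expression, so the smaller size in females is not read as a trait of the 10.

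**Figure D1:**
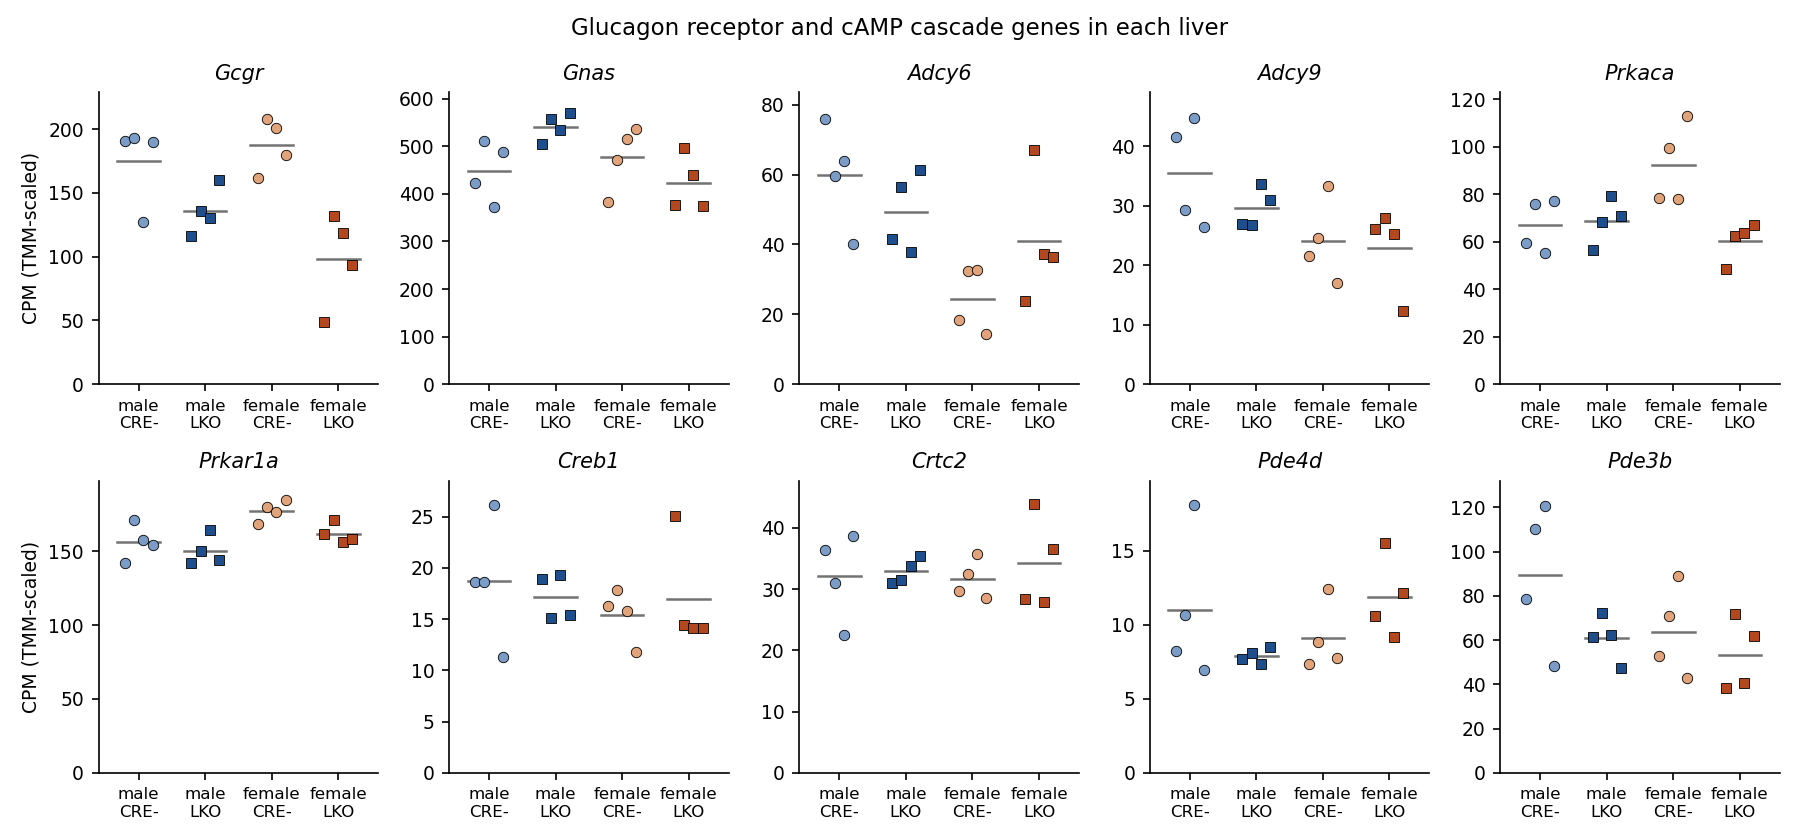
CPM (scaled by TMM, axis from 0) of the 10 genes in each of the 16 livers, with circles for CRE-, squares for LKO and a line at the group mean. Gcgr in female LKO lay between 48.8 and 131.9 CPM, under every female CRE- liver, while in most other panels the groups overlapped.

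Gcgr encodes the glucagon receptor and lies on the + strand at chr11:120420011-120429815 (GRCm39). Its canonical transcript in GENCODE, Gcgr-201, has 14 exons, of which exon 1 holds no coding bases. The loxP sites of the floxed allele are described as surrounding exons 6 to 12. Exon numbers can be counted from the first or from the first coding exon: the study's qPCR primers, named for exons 7 to 9, matched exons 8 to 10 of Gcgr-201, so the deleted segment is exons 6 to 12 of this transcript, or exons 7 to 13 if its numbers also run 1 lower. By the former count it spans chr11:120427288-120428876 and 783 of the 2932 exon bases that were counted for the gene (26.7%), and by the latter chr11:120427483-120428984 and 718 bases (24.5%). Under either count exons 7 to 12 are inside it, and 73.3% or 75.5% of the counted exon bases are outside it, so that reads of a transcript lacking the segment were still counted. A count of the whole gene is therefore a weak check of the LKO label in any 1 liver. The primers are shown because they mark a stretch that is inside the deleted segment under either numbering. The forward primer lies in exon 8 (chr11:120427759-120427778, + strand), and the reverse primer, which reads the other strand, crosses the junction of exons 9 and 10 (chr11:120428001-120428151), with the bases of exon 9 in capitals. They bound 190 bases of the spliced transcript.
forward: gtacggcatcatagccaact
reverse: ccagcacTGAACATTCTCAAAC

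**Figure D2:**
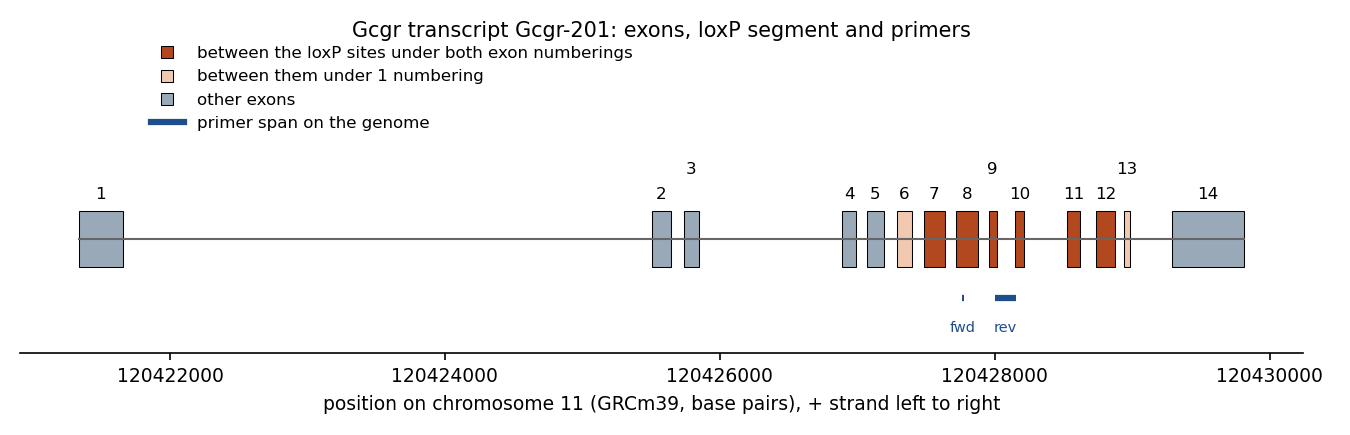
Exons of Gcgr-201 drawn to scale on chromosome 11 (GRCm39, base pairs) with the spans of both primers on the genome. Exons 7 to 12 lie between the loxP sites under either way of counting exons, and exons 6 and 13 under 1 of them.

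In male CRE- livers, Gcgr was read at 190.4, 192.9, 127.3 and 189.6 CPM in replicates 1 to 4. In male LKO livers it was read at 116.5, 135.9, 129.9 and 160.3 CPM. The male groups overlapped: control replicate 3 was as low as the LKO livers, and only LKO replicate 1 lay under all controls. The male log2 fold change was -0.37 (SE 0.245), and its edgeR adjusted p was 0.671. Male LKO livers kept 77.5% of the control level, with a 95% interval from 54.1% to 110.9%.

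In female CRE- livers, Gcgr was read at 161.8, 208.1, 200.7 and 180.0 CPM in replicates 1 to 4. In female LKO livers it was read at 48.8, 131.9, 118.6 and 93.6 CPM. All 4 female LKO livers lay under all 4 controls, with replicate 1 far under the other 3. Gcgr fell by 0.93 on the log2 scale in females (SE 0.247; edgeR adjusted p = 0.0443). Female LKO livers kept 52.3% of the control level (95% interval 36.5% to 75.1%). The call held when male CRE- replicate 2 or 3 or female LKO replicate 2 was left out. It was lost without any other of the 16 livers, at adjusted p-values from 0.0506 without male LKO replicate 1 to 0.136 without female CRE- replicate 2, and without female LKO replicate 1 the log2 fold change was -0.69 (adjusted p = 0.0802). It was also lost with upper-quartile normalization, without a filter on low counts, with a stricter filter and when females were fitted alone, at adjusted p-values from 0.0506 to 0.132.

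The female fold change was not shown to differ from the male one. The interaction of Gcgr was -0.57 (SE 0.346; edgeR adjusted p = 0.411), and -0.31 without female LKO replicate 1. Averaged over the sexes, its log2 fold change was -0.65 (SE 0.174; edgeR adjusted p = 0.0555), which missed the threshold; it passed in DESeq2 at 0.0105 and limma-voom at 0.00889, and in edgeR when male CRE- replicate 3 (0.0393), female LKO replicate 1 (0.0342) or female LKO replicate 2 (0.0295) was left out. Between female and male controls Gcgr was not called, with 2 of 4 female controls above all male controls and a log2 fold change of 0.10 (95% interval -0.42 to 0.62; edgeR adjusted p = 0.89), and without male CRE- replicate 3 it was -0.04.

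Markers of hepatocytes and of Kupffer cells were read in the same livers. The hepatocyte markers summed to 110500, 107600, 112800 and 129200 CPM in female CRE- replicates 1 to 4 and to 48900, 88660, 85680 and 66500 CPM in female LKO replicates 1 to 4. Female LKO replicate 1, the liver with the least Gcgr, was also the lowest in this sum, and all 4 female LKO livers lay under all controls. Of the 7 hepatocyte markers, 0 were called in females, and all 7 had a fitted log2 fold change under 0, with a median of -0.57 beside 0.04 over all genes. In males the same markers summed to 66050, 91160, 103200 and 90850 CPM in controls and to 61890, 70970, 86780 and 72320 CPM in LKO livers, which overlapped, and 0 of 7 were called. Markers of Kupffer cells, the resident macrophages of the liver, summed to 545.9, 420.1, 460.2 and 766.5 CPM in female controls and to 3026, 708.1, 1592 and 880.8 CPM in female LKO livers, with Cd5l the most abundant and none of the 6 at 0 in any library. The female Kupffer sums overlapped, since control replicate 4 lay above LKO replicate 2. Female LKO replicate 1 was the highest of all 16 livers, all 6 markers had a fitted fold change above 0, and 1 of 6, Adgre1, was called. In males the Kupffer markers summed to 619.7, 345.6, 178.5 and 907.5 CPM in controls and to 852.5, 471.6, 547.5 and 495.4 CPM in LKO livers, which overlapped, and 0 of 6 were called. Male CRE- replicate 3, the control with the least Gcgr, had the lowest Kupffer sum of all 16 livers and the highest male hepatocyte sum. That hepatocyte sum was mostly Alb at 89870 CPM, and its markers went both ways. Alb, Hnf4a and Cps1 were the highest of the males, Ttr (2223 CPM) and Asgr1 (319.6 CPM) the lowest, and Apoa1 and Serpina1a lay between. Ttr and Asgr1 were the lowest of all 16 livers in female LKO replicate 1, at 920.8 and 277.1 CPM. The part of these cell types in the Gcgr result was not tested.

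**Figure D3:**
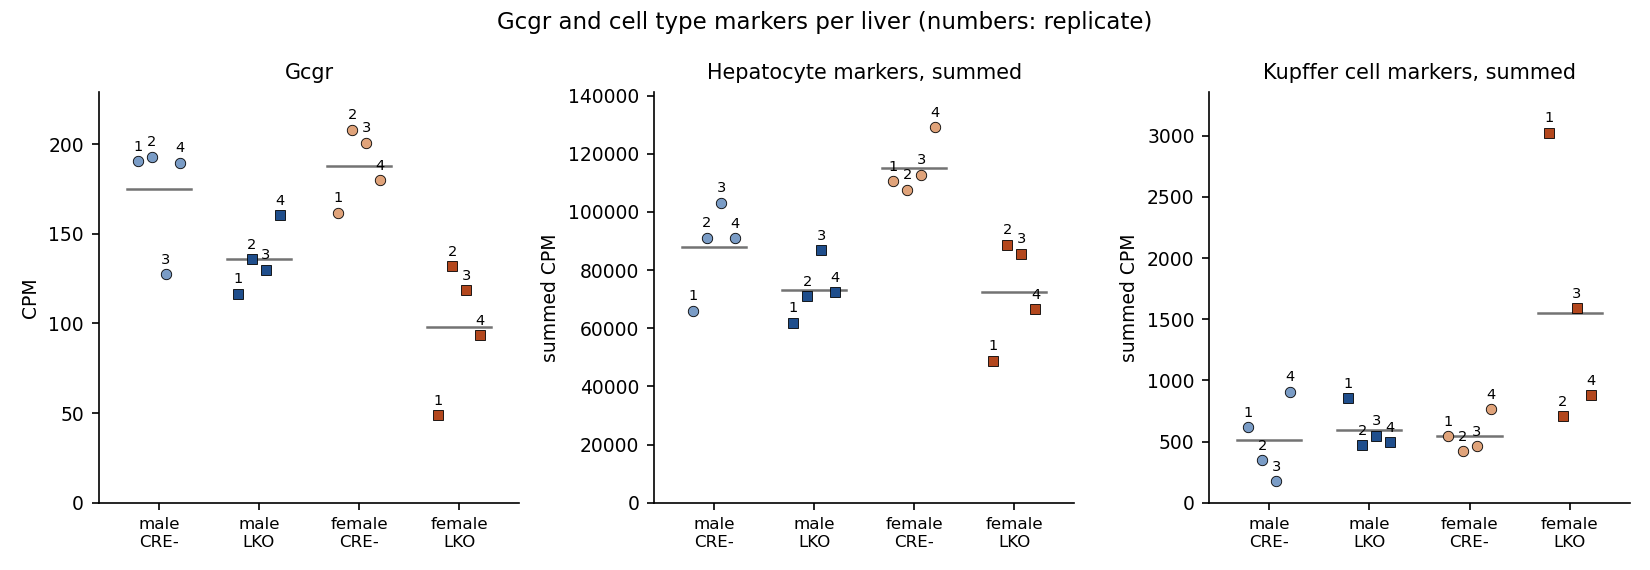
Gcgr (CPM), summed hepatocyte markers and summed Kupffer cell markers (summed CPM) in each liver, with replicate numbers beside the points, a line at the group mean and axes from 0. Female LKO replicate 1 had the least Gcgr at 48.8 CPM, the lowest hepatocyte sum at 48900 CPM and the highest Kupffer sum at 3026 CPM.

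The genes whose pattern was most like that of Gcgr were found by the root-mean-square difference between centred log2 CPM over the 16 livers, where Gcgr itself had a spread of 0.51 about its mean. They were Fahd1 at 0.19, Pcca at 0.19, H2-Q10 at 0.19, Nipsnap1 at 0.19 and Gckr at 0.20. Fahd1, Pcca and Nipsnap1 encode mitochondrial proteins, Gckr encodes the regulatory protein of glucokinase, and H2-Q10 encodes a class I molecule secreted by the liver. Each of the 5 was at its lowest in the same liver as Gcgr, female LKO replicate 1. There Fahd1 was read at 16.6 CPM, Pcca at 26.7 CPM, H2-Q10 at 489.6 CPM, Nipsnap1 at 115.2 CPM and Gckr at 54.4 CPM. Because the 5 were chosen for following Gcgr over these livers, the shared lowest liver was largely set by that choice.

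Among 19 receptors that couple to the stimulatory G protein, Gcgr held 70.4% of the summed RPKM. Vipr1, a receptor for vasoactive intestinal peptide, followed at 6.58 RPKM and Pth1r, the parathyroid hormone receptor, at 4.54 RPKM. The receptors for the related hormones GLP-1 (Glp1r), GIP (Gipr) and secretin (Sctr) were too low to be tested, as were Vipr2 and Gpbar1, which left 14 tested. In males 0 of 14 were called. In females 1 of 14 was called lower, Gcgr, and 1 higher, beside 4.24% of all genes called. The median log2 fold change of the 14 was -0.16 in females beside 0.04 over all genes.

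Gnas encodes the alpha subunit of the stimulatory G protein, which couples the receptor to adenylyl cyclase. It was read at 423.2, 510.2, 372.4 and 487.5 CPM in male controls and at 504.4, 557.1, 534.5 and 569.3 CPM in male LKO livers. Female values were 382.1, 471.4, 515.2 and 536.7 CPM in controls and 376.3, 496.1, 439.1 and 375.4 CPM in LKO livers. The groups overlapped in both sexes, although 3 of 4 male LKO livers lay above all male controls. Its log2 fold change was 0.27 in males (95% interval -0.08 to 0.63; edgeR adjusted p = 0.647). It was -0.18 in females (95% interval -0.53 to 0.18; edgeR adjusted p = 0.598), and moved to -0.27 or -0.09 when female CRE- replicate 1 or 4 was left out and to -0.10 or -0.26 when female LKO replicate 1 or 2 was. The male value was 0.18 without male CRE- replicate 3. Of the exon bases of Gnas, 3.91% overlap genes on the opposite strand, which the counting kept apart by strand.

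Of 11 alpha and beta subunits of heterotrimeric G proteins, all were tested and 0 were called in either sex. Gnai2, an inhibitory alpha subunit, stood highest at 72.6 RPKM, ahead of Gnas and of the beta subunit Gnb1 at 25.9 RPKM. The order of Gnai2 and Gnas depended on the exon length, which is 2191 bases for Gnai2 and 9024 for Gnas. In CPM, which is not divided by length, Gnas stood above Gnai2, at a mean of 471.9 against 159.1 CPM. The median log2 fold change was -0.03 in males and 0.16 in females, where 8 of the 11 had a value above 0. Between the controls 1 of the 11 was called, Gnai1, beside 0.92% of all genes. Its values were 1.24, 1.13, 1.25 and 1.39 CPM in female and 4.14, 6.77, 7.18 and 3.37 CPM in male CRE- livers. Gnai1, another inhibitory subunit, was thus lower in every female control than in every male control, and it is named after its values were seen.

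Adcy6 encodes a membrane adenylyl cyclase that the stimulatory G protein activates. In males it was read at 75.8, 59.5, 64.0 and 40.2 CPM in controls and at 41.5, 56.5, 38.0 and 61.4 CPM in LKO livers. Female livers had 18.4, 32.4, 32.7 and 14.5 CPM in controls and 23.7, 67.0, 37.3 and 36.6 CPM in LKO livers. The male groups overlapped, 3 of 4 female LKO livers lay above all female controls, and every female control lay under every male control. The log2 fold change was -0.28 in males (SE 0.315; edgeR adjusted p = 0.814), and -0.15, -0.43 or -0.17 when male CRE- replicate 1, male CRE- replicate 4 or male LKO replicate 3 was left out. It was 0.75 in females (95% interval 0.08 to 1.42; edgeR adjusted p = 0.179), and the interaction was 1.03 (edgeR adjusted p = 0.287). Neither was called, and without female LKO replicate 2, the highest female liver, the female value was 0.41. Between female and male controls the log2 fold change of Adcy6 was -1.29 (SE 0.32), not called by edgeR at an adjusted p of 0.074. That comparison passed in DESeq2 (0.00511), without a filter on low counts (0.0494), with the controls fitted alone (0.0486) and when female LKO replicate 1 (0.0335) or 2 (0.0413) was left out.

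Adcy9 encodes a widely expressed adenylyl cyclase. It was read at between 26.5 and 44.8 CPM in male controls, 26.7 and 33.7 CPM in male LKO livers, 17.1 and 33.4 CPM in female controls and 12.3 and 28.0 CPM in female LKO livers, and these ranges overlapped within each sex. The log2 fold change was -0.26 in males (edgeR adjusted p = 0.777) and -0.08 in females (edgeR adjusted p = 0.901). The male value was -0.15 without male CRE- replicate 3. The female value turned to 0.12 without female CRE- replicate 3 and to 0.13 without female LKO replicate 4. Between the controls Adcy9 had a log2 fold change of -0.56, in the same direction as Adcy6 (edgeR adjusted p = 0.381), with 3 of 4 female controls under all male controls.

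Of 10 adenylyl cyclases, 8 were tested and 0 were called in males or in females. Adcy6 and Adcy9 held 30.7% and 25.6% of the summed RPKM of the family, followed by Adcy4 at 1.83 RPKM. All 8 had a fitted fold change under 0 in males, with a median of -0.27, and 5 of 8 were above 0 in females, with a median of 0.13. Between the controls 1 of the 8 was called, Adcy1, beside 0.92% of all genes, and it is named after its values were seen. It was read at 44.9, 20.0, 4.21 and 14.2 CPM in female CRE- livers and at no more than 0.676 CPM in male CRE- livers. Female LKO livers had 7.65, 1.05, 1.94 and 13.97 CPM of Adcy1, a range that overlapped that of the female controls.

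Prkaca encodes the main catalytic subunit of PKA. In males it was read at 59.5, 76.1, 55.4 and 77.2 CPM in controls and at 56.6, 68.5, 79.2 and 70.7 CPM in LKO livers. In females it was read at 78.4, 99.6, 78.1 and 112.9 CPM in controls and at 48.7, 62.2, 63.6 and 66.9 CPM in LKO livers. The male groups overlapped almost fully, while every female LKO liver lay under every female control, and every female control lay above every male control. The female log2 fold change was -0.61 (SE 0.176), and at an edgeR adjusted p of 0.0582 it was not called. DESeq2 (0.0194) and limma-voom (0.0336) called it. The male value was 0.04 (SE 0.176; edgeR adjusted p = 0.965), which turned to -0.06, -0.04 or -0.02 when male CRE- replicate 3, male LKO replicate 3 or male CRE- replicate 1 was left out, and the interaction of -0.65 was not called (edgeR adjusted p = 0.243). Between the controls the log2 fold change of Prkaca was 0.46 (edgeR adjusted p = 0.288). Groups that did not overlap were seen for 2 of the 10 genes in females, Gcgr and Prkaca, beside 11.6% of all genes tested, and for 0 of the 10 in males, beside 6.49%.

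Prkar1a encodes a regulatory subunit that holds the PKA catalytic subunit inactive until cyclic AMP binds. It was the steadiest of the 10 genes, between 141.9 and 184.6 CPM over all 16 livers. Its log2 fold change was -0.06 in males (95% interval -0.33 to 0.21; edgeR adjusted p = 0.913). In females it was -0.13 (95% interval -0.40 to 0.14; edgeR adjusted p = 0.6), with 3 of 4 LKO livers under all controls. Of 9 PKA subunits and inhibitors, all were tested and 0 were called in either sex. Prkar1a, Prkaca and the regulatory subunit Prkar2a at 16.6 RPKM were the most abundant. The median log2 fold change of the 9 was -0.23 in males and -0.01 in females.

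A-kinase anchoring proteins tether PKA to membranes and organelles. Of 12 listed, 11 had an entry in the table, Akap2 being the one without, and all 11 were tested. Of these 0 were called in either sex. Akap1, which anchors PKA at mitochondria, held 48.4% of their summed RPKM, ahead of Akap8l at 9.31 RPKM and Akap8 at 7.94 RPKM. In males 9 of 11 had a fitted fold change under 0 (median -0.21) and in females 7 of 11 above 0 (median 0.20).

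Creb1 encodes CREB, the transcription factor that PKA phosphorylates. It ranged from 11.3 to 26.2 CPM in male controls, 15.1 to 19.3 CPM in male LKO livers, 11.8 to 17.8 CPM in female controls and 14.1 to 25.1 CPM in female LKO livers. The groups overlapped in both sexes, and female LKO replicate 1 at 25.1 CPM stood apart from the other 3, which lay between 14.1 and 14.4 CPM. Its log2 fold change was -0.12 in males (edgeR adjusted p = 0.903) and 0.13 in females (edgeR adjusted p = 0.808). The male value turned to 0.07 without male CRE- replicate 3. The female value turned to -0.10 without female LKO replicate 1 and to -0.16 in limma-voom.

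Crtc2 encodes the CREB coactivator that enters the nucleus when salt-inducible kinases are inhibited by PKA. It ranged from 22.5 to 38.7 CPM in male controls, 31.0 to 35.5 CPM in male LKO livers, 28.5 to 35.8 CPM in female controls and 28.0 to 44.0 CPM in female LKO livers, with the LKO range overlapping the control range in both sexes. The log2 fold change was 0.03 in males (edgeR adjusted p = 0.97) and 0.12 in females (edgeR adjusted p = 0.772). The male value turned to -0.12 without male CRE- replicate 3, to -0.02 without male LKO replicate 4 and to -0.04 in limma-voom, and the female value turned to -0.03 without female LKO replicate 2. Neither Creb1 nor Crtc2 was thus called, and the sign of both depended on single livers.

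Among 11 CREB partners, all tested, 0 were called in males, beside 0.454% of all genes, and 1 in females, Sik1, beside 4.24%. Crtc2 was the most abundant, ahead of Sik1 at 8.41 RPKM and Atf1, a close relative of CREB, at 8.28 RPKM. The median log2 fold change of the 11 was -0.13 in males and 0.13 in females.

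Sik1 encodes a salt-inducible kinase that keeps CRTC2 out of the nucleus and is itself a CREB target. In female CRE- livers it was read at 18.5, 19.04, 15.4 and 16.2 CPM, and in female LKO livers at 48.7, 58.6, 25.2 and 190.9 CPM. All female LKO livers lay above all controls, and replicate 4 was the highest. Sik1 rose in females by a log2 fold change of 2.22 (SE 0.457; edgeR adjusted p = 0.0194). Without female LKO replicate 4 the value was 1.35 and still called, while the call was lost without female CRE- replicate 2, 3 or 4, at adjusted p-values from 0.0636 to 0.0691. In male controls Sik1 was read at 29.9, 26.1, 45.3 and 31.2 CPM and in male LKO livers at 33.1, 16.8, 22.0 and 15.4 CPM, where 3 of 4 LKO livers lay under all controls (log2 fold change -0.60; edgeR adjusted p = 0.699). The interaction of Sik1 was 2.83, not called by edgeR (adjusted p = 0.135) but called by DESeq2 (0.00211) and by edgeR without female LKO replicate 3 (0.0414).

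Markers of neutrophils were also higher in female LKO livers. They summed to 27.2, 13.9, 11.8 and 15.7 CPM in female CRE- replicates 1 to 4 and to 86.2, 30.7, 56.0 and 574.6 CPM in female LKO replicates 1 to 4, so the liver with the most Sik1, female LKO replicate 4, also had the most neutrophil RNA. Of the other female LKO livers, replicate 1 lay above replicate 3 in both values, while replicate 2, second in Sik1, had the lowest neutrophil sum. Male CRE- replicate 3 had the most Sik1 of the males with a sum of 7.88 CPM. Of 5 markers 4 were tested, all 4 had a fitted fold change above 0 in females, and 2 were called, Retnlg and Ngp. S100a9 was the most abundant at 257.7 CPM in that liver, and Ly6g was at 0 in some libraries. In males the sum was 66.6, 13.8, 7.88 and 154.1 CPM in controls and 17.3, 10.2, 7.70 and 7.18 CPM in LKO livers, which overlapped; all 4 had a fitted fold change under 0, with a median of -2.24, and 0 were called. The part of these cells in the values of Sik1 was not tested.

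Pde3b encodes a phosphodiesterase that insulin activates in the liver and in fat. In males it was read at 78.5, 110.1, 120.6 and 48.2 CPM in controls and at 61.2, 72.2, 62.4 and 47.3 CPM in LKO livers. Female readings were 53.0, 70.8, 89.0 and 42.7 CPM in controls and 38.4, 72.0, 40.8 and 62.1 CPM in LKO livers. The groups overlapped in both sexes, and 3 of 4 male and 2 of 4 female LKO livers lay within the range of their controls. Its log2 fold change was -0.56 in males (95% interval -1.17 to 0.06; edgeR adjusted p = 0.572). In females it was -0.26 (95% interval -0.88 to 0.36; edgeR adjusted p = 0.66), and averaged over the sexes -0.41 (SE 0.206; edgeR adjusted p = 0.354). The female value of Pde3b was -0.06 when female CRE- replicate 3 was left out, and -0.11, -0.44 or -0.15 when female LKO replicate 1, 2 or 3 was.

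Pde4d encodes a phosphodiesterase specific to cyclic AMP and was the member with the fewest reads for its length. In males it was read at 8.22, 10.6, 18.1 and 6.92 CPM in controls and at 7.69, 8.12, 7.33 and 8.48 CPM in LKO livers. Among females it was read at 7.32, 8.82, 12.4 and 7.78 CPM in controls and at 10.6, 15.5, 9.16 and 12.2 CPM in LKO livers. Both pairs of groups overlapped, and male CRE- replicate 3 was the highest liver of all. Its log2 fold change was -0.47 in males (edgeR adjusted p = 0.612) and 0.38 in females (edgeR adjusted p = 0.446). The interaction was 0.86 (95% interval 0.05 to 1.66; edgeR adjusted p = 0.294), and without male CRE- replicate 3 it was 0.53 and the male value -0.13. The female value of Pde4d was 0.23 without female LKO replicate 2.

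Of 16 phosphodiesterases that can break down cyclic AMP, 15 were tested. In males 1 was called (Pde4b, lower), beside 0.454% of all genes, and in females 1 (Pde10a, higher), beside 4.24%. Pde3b held 35.3% of their summed RPKM, ahead of Pde8a at 5.73 RPKM and Pde2a at 5.14 RPKM. The median log2 fold change was -0.36 in males and 0.15 in females, beside -0.01 and 0.04 over all genes.

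Pde4b encodes another phosphodiesterase specific to cyclic AMP and is induced through CREB in many cells. In male CRE- livers it was read at 21.5, 20.4, 23.8 and 18.6 CPM, and in male LKO livers at 5.17, 5.25, 5.32 and 4.75 CPM. The male groups were far apart, and the 4 LKO livers lay within 1 CPM of each other. Pde4b fell by 2.04 on the log2 scale in males (SE 0.276; edgeR adjusted p = 0.0029), to 24.3% of the control level (95% interval 16.2% to 36.4%). This call held in all 8 other settings and without each of the 16 livers, with values from -2.09 to -1.99 in the latter. The neutrophil markers, with a male median of -2.24, and the erythroid markers were also fitted lower in male LKO livers, and the part of these cells in the male value of Pde4b was not tested. In female CRE- livers Pde4b was read at 28.6, 16.9, 21.6 and 14.7 CPM, and in female LKO livers at 16.6, 13.1, 8.61 and 25.3 CPM. Here the groups overlapped, and the log2 fold change was -0.37 (edgeR adjusted p = 0.463), which limma-voom called at -0.79 (adjusted p = 0.0344). Leaving out female CRE- replicate 1 or female LKO replicate 3 moved the female value to -0.16, and leaving out female LKO replicate 4 to -0.69. Averaged over the sexes the value was -1.203 (SE 0.19; edgeR adjusted p = 0.00223). The sexes were not shown to differ by edgeR, with an interaction of 1.67 (adjusted p = 0.135), while DESeq2 called it (0.006), as did edgeR without female LKO replicate 3 (0.0466).

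Pde10a, a phosphodiesterase best known from the striatum of the brain, was low in every liver. It was read at 0.665, 0.662, 0.383 and 0.428 CPM in female controls and at 1.26, 2.37, 1.39 and 3.33 CPM in female LKO livers. All female LKO livers lay above all controls, and Pde10a rose by a log2 fold change of 1.96 (SE 0.493; edgeR adjusted p = 0.0382). The call was lost without male CRE- replicate 1, without any 1 of the 4 female CRE- livers and without female LKO replicate 4, at adjusted p-values from 0.0518 to 0.112. In males the value was 0.33 (edgeR adjusted p = 0.857), with 1 of 4 LKO livers above all controls and 1 under all of them, and without male LKO replicate 3 it turned to -0.18. The interaction of Pde10a was 1.63 (edgeR adjusted p = 0.269).

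Cyclic AMP also acts through Epac proteins, receptors are switched off by kinases and arrestins, and receptor activity-modifying proteins (Ramp1, Ramp2 and Ramp3) bind several receptors of this family. Of 10 genes of these kinds, all tested, 0 were called in males, beside 0.454% of all genes. In females 1 was called, Rapgef4, which encodes Epac2, beside 4.24% of all genes. Grk2, a kinase of G protein-coupled receptors, stood highest at 16.8 RPKM, ahead of the arrestin Arrb2 at 11.9 RPKM and Rapgef4 at 10.3 RPKM. The median log2 fold change of the 10 was 0.09 in males and 0.56 in females, beside -0.01 and 0.04 over all genes. Grk2 at 169.4 CPM and Arrb2 at 88.0 CPM were highest in female LKO replicate 1, the liver with the highest Kupffer sum, and the part of these cells in the values of this list was not tested.

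Rapgef4 was read at 68.0, 69.4, 85.2 and 32.0 CPM in female controls and at 109.9, 158.8, 116.2 and 124.4 CPM in female LKO livers. All female LKO livers lay above all controls. Rapgef4 rose in females by a log2 fold change of 1.0002 (SE 0.267; edgeR adjusted p = 0.0454). This call held only without male CRE- replicate 3, male CRE- replicate 4 or male LKO replicate 1, and was lost without any other of the 16 livers, at adjusted p-values from 0.0512 to 0.117. In males it was read at 110.8, 110.2, 110.4 and 65.8 CPM in controls and at 171.0, 101.7, 125.9 and 114.1 CPM in LKO livers, where 3 of 4 LKO livers lay above all controls. The male value was 0.37 (edgeR adjusted p = 0.696), or 0.22 and 0.18 without male CRE- replicate 4 and male LKO replicate 1, and the interaction was 0.63 (edgeR adjusted p = 0.397).

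**Figure D4:**
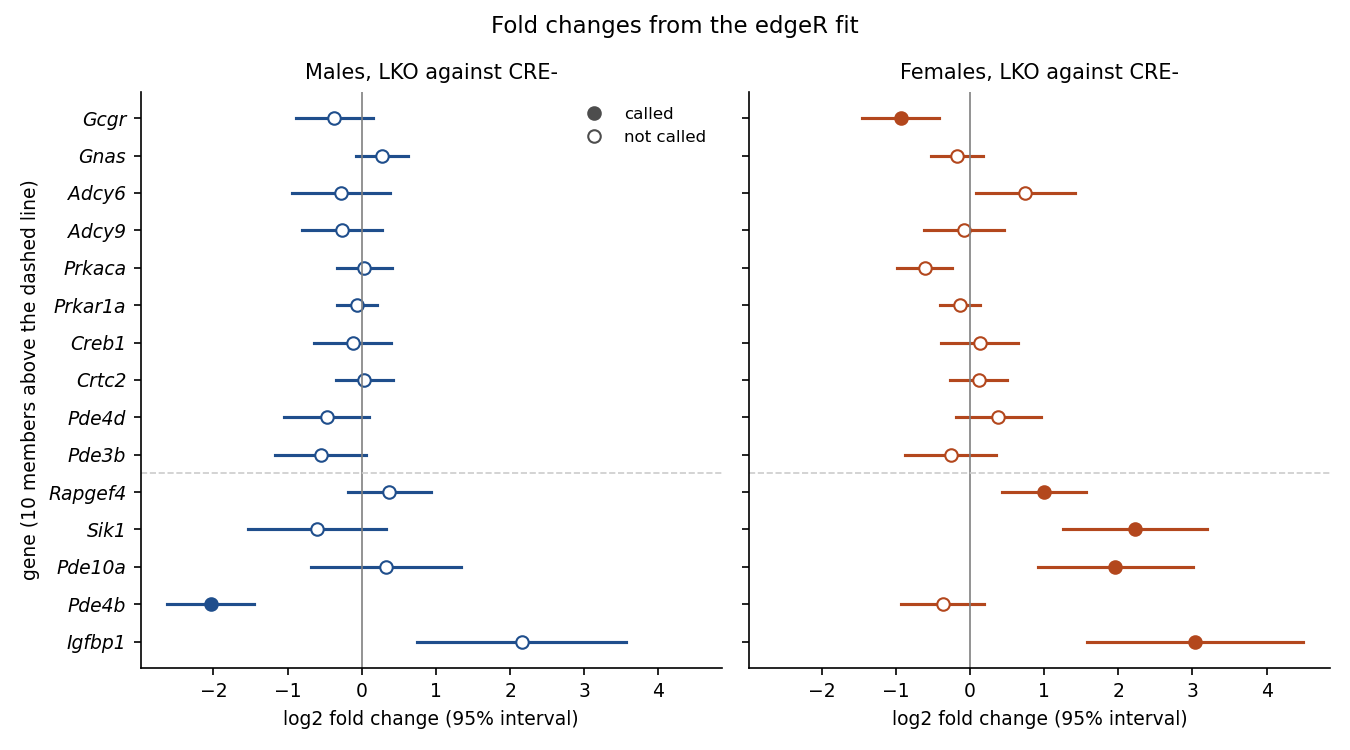
Log2 fold changes of LKO against CRE- (points) with 95% intervals (lines) in males and females for the 10 genes and for 5 called genes of the wider lists, filled where the edgeR adjusted p was under 0.05. Gcgr at -0.93 in females is the only filled point among the 10 genes, and Pde4b at -2.04 the only filled point in males.

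Genes known to be induced through CREB and CRTC2 were read as the output of the cascade. Of 17 symbols 16 were in the table, since G6pc is the older name of G6pc1, and all 16 were tested. In males 1 was called, Pde4b, beside 0.454% of all genes, and in females 2, Sik1 and Igfbp1, both higher, beside 4.24%. In males 12 of 16 had a fitted fold change under 0 (median -0.47), and in females 9 of 16 above 0 (median 0.16). Over all genes tested the medians were -0.01 and 0.04. The groups did not overlap for 4 of 16 in males, beside 6.49% of all genes, and for 2 of 16 in females, beside 11.6%.

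Igfbp1 encodes a secreted binding protein of insulin-like growth factors that the fasted liver produces. In male controls it was read at 9.01, 14.5, 11.96 and 15.4 CPM and in male LKO livers at 84.9, 16.4, 96.8 and 28.7 CPM. In female controls it was read at 41.2, 28.5, 25 and 28.5 CPM and in female LKO livers at 117.1, 62.8, 104.3 and 728.3 CPM. In both sexes every LKO liver lay above every control, and the LKO livers spread widely, with female LKO replicate 4 above all others. Igfbp1 rose in females by a log2 fold change of 3.04 (SE 0.689; edgeR adjusted p = 0.0266), and without female LKO replicate 4 the value was 1.62 and no longer called (adjusted p = 0.066). The female call was also lost without female CRE- replicate 2, 3 or 4, at adjusted p-values from 0.0743 to 0.0903. In males the value was 2.16 and was not called (SE 0.667; edgeR adjusted p = 0.237), though it was without female LKO replicate 4 (adjusted p = 0.0368). Averaged over the sexes Igfbp1 rose by a log2 fold change of 2.60 (SE 0.479; edgeR adjusted p = 0.00674), a call that held without each of the 16 livers. The interaction of 0.88 (edgeR adjusted p = 0.633) turned to -0.53 without female LKO replicate 4.

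Pck1 encodes phosphoenolpyruvate carboxykinase, which commits substrates to glucose production. In male controls it was read at 2222, 1791, 1465 and 1603 CPM and in male LKO livers at 748.0, 243.7, 1112 and 402.8 CPM. Every male LKO liver lay under every male control. The male log2 fold change was -1.50 (95% interval -2.53 to -0.47), and at an edgeR adjusted p of 0.272 it was not called. In female controls Pck1 was read at 690.5, 738.3, 1300.0 and 442.7 CPM and in female LKO livers at 826.2, 2765, 760.2 and 815.4 CPM. The female groups overlapped, with female LKO replicate 2 apart from the rest. The female value was 0.70 (edgeR adjusted p = 0.43), and it was 0.01 without that liver. The interaction of Pck1 was 2.20 (SE 0.681), not called by edgeR (adjusted p = 0.201) but called by DESeq2 (0.0402).

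G6pc1 encodes the catalytic subunit of glucose-6-phosphatase, which releases glucose from the liver. It was read at 194.2 to 242.1 CPM in male controls, 61.5 to 232.2 CPM in male LKO livers, 105.3 to 187.8 CPM in female controls and 53.7 to 202.0 CPM in female LKO livers. The groups overlapped, with 2 of 4 LKO livers under all controls in each sex. The log2 fold change was -0.47 in males (edgeR adjusted p = 0.745) and -0.48 in females (edgeR adjusted p = 0.537). The female value of G6pc1 was -0.95, -0.30 or -0.23 when female LKO replicate 2, 4 or 1 was left out, and the male value -0.21 when male LKO replicate 1 was. Ppargc1a, a coactivator of fasting genes, was read at 6.92 to 15.3 CPM in male controls and 4.38 to 7.10 CPM in male LKO livers, with a log2 fold change of -0.93 that was not called (edgeR adjusted p = 0.333). In females its range was 4.22 to 9.51 CPM in controls and 5.31 to 13.5 CPM in LKO livers. The female value of 0.14 (edgeR adjusted p = 0.852) turned to -0.21 without female LKO replicate 2, to -0.03 without female CRE- replicate 4 and to -0.19 in limma-voom.

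Beside Pck1, the most abundant genes of this list were Tat at 200.8 RPKM and Sds at 86.3 RPKM, which encode enzymes that break down tyrosine and serine. Sds was read at 253.6, 210.4, 152.3 and 202.0 CPM in male controls and at 48.4, 33.3, 107.1 and 34.4 CPM in male LKO livers. Every male LKO liver lay under every male control, but the log2 fold change of -1.87 was not called by edgeR (SE 0.472; adjusted p = 0.109). It was called by DESeq2 (0.00441), by limma-voom (0.0206), with males fitted alone (0.0492) and without female LKO replicate 1 (0.0435). In female controls Sds was read at 102.4, 116.6, 218.2 and 159.5 CPM and in female LKO livers at 31.9, 197.2, 67.0 and 94.0 CPM, where 3 of 4 LKO livers lay under all controls (log2 fold change -0.61; edgeR adjusted p = 0.48). This value was -1.22 without female LKO replicate 2, -0.37 without female CRE- replicate 3 and -0.30 without female LKO replicate 1. Averaged over the sexes the value was -1.24 (edgeR adjusted p = 0.0521), which passed in DESeq2 (0.00441), in limma-voom (0.00922), without a filter on low counts (0.0367) and when male LKO replicate 3 (0.0171) or female LKO replicate 2 (0.00908) was left out. Tat was read at 408.3 to 948.6 CPM in male controls and 246.9 to 451.7 CPM in male LKO livers, and at 904.9 to 994.4 CPM in female controls and 171.1 to 1052 CPM in female LKO livers. Its log2 fold change was -1.16 in males (edgeR adjusted p = 0.4) and -0.79 in females (edgeR adjusted p = 0.344), and limma-voom called the female one (-1.36; adjusted p = 0.0291). The female value of Tat was -1.32 without female LKO replicate 4, -0.50 without replicate 3 and -0.47 without replicate 1.

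CREB binds the letters TGACGTCA, or the shorter core TGACG that they contain, and both were searched on both strands of the RefSeq promoters (GRCm38.p6), which run over 300 bases around each start of transcription. TGACGTCA was held by 588 of 32851 promoters (1.79%) and TGACG by 6837 (20.8%). Of the 10 genes 7 matched a promoter entry, with 16 promoters; Adcy6, Crtc2 and Pde3b had none. Prkar1a had TGACGTCA in 2 overlapping promoters, and TGACG was in 8 of the 16, from Adcy9, Gnas, Prkaca and Prkar1a. Among the target genes, 13 symbols matched 17 promoters, Dusp1 held TGACGTCA, and 10 promoters of 9 genes held TGACG, with no entry for Sik1, Crem and Sds, and G6pc1 found as G6pc. The site of Prkar1a and the sites of the targets Pde4b, Pck1 and Ppargc1a are shown, with the searched letters or their reverse complement in capitals, 5′ to 3′ on the strand of the gene. The capitals begin at -49 from 1 of the starts of Prkar1a (chr11:109650889-109650918, + strand) and at -34 from 1 of the starts of Pde4b (chr4:102421510-102421536, + strand). They begin at -90 in Pck1 (chr2:173152972-173152998, + strand) and at -49 in Ppargc1a (chr5:51567759-51567785, - strand). The other promoters of Pde4b held neither TGACGTCA nor TGACG. Coordinates are those of the whole stretch printed. A match describes the letters only, and binding was not measured.
Prkar1a: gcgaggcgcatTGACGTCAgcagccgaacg
Pde4b: atttggctgcaCGTCAattttctcatc
Pck1: cctgccccttaCGTCAgaggcgagcct
Ppargc1a: gtgccctcccaCGTCActgagctccag

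The remaining marker lists are given for the same livers. None of the 5 markers of T and NK cells (Nkg7 the most abundant), 5 of B and plasma cells (Jchain), 5 of endothelium (Stab2), 5 of stellate cells (Dcn), 5 of cholangiocytes (Spp1) or 5 of erythroid cells (Hbb-bs) was called in either sex. Erythroid markers summed to between 558.0 and 1039 CPM in male controls and 195.9 and 491.6 CPM in male LKO livers, so that every male LKO liver lay under every male control, with all 5 fitted lower. In females they summed to between 389.5 and 786.6 CPM in controls and to 406.5, 869.2, 304.1 and 1650 CPM in LKO livers, with all 5 fitted higher, and replicate 4, the liver with the most Igfbp1 and Sik1, was the highest of all 16. The part of erythroid RNA in the values of either sex was not tested. Pancreatic acinar markers, of which 1 was tested and not called, Cela1 was the most abundant and Prss2, Cpa1, Ctrb1 and Pnlip were at 0 in some libraries, summed to 132.4 CPM in male CRE- replicate 2 and 533.5 CPM in female CRE- replicate 2 against at most 28.2 CPM in the other 14 livers. Of the 4 markers of islet alpha cells none was tested, and glucagon itself (Gcg) was read at 12.04 CPM in male LKO replicate 1, 2.89 CPM in female LKO replicate 2 and under 1 CPM in the rest, while another of them, Chga, was read at 7.18 CPM in male LKO replicate 4. Skeletal muscle markers, led by Acta1, summed to 116.4 and 66.4 CPM in male LKO replicates 3 and 4, 26.0 CPM in female CRE- replicate 4, 13.4 CPM in female LKO replicate 2 and at most 5.99 CPM elsewhere, and 0 of 5 were called. Acinar RNA was thus high in 2 control livers, alpha cell markers in 3 LKO livers and muscle RNA in livers of both genotypes.

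With 4 livers a group, fold changes of the size seen for most of these genes could not be told from 0, and a gene that was not called was not shown to be unchanged. Most calls in females were lost when 1 liver was left out, while the male call of Pde4b was not. The whole-gene count of Gcgr includes exons outside the deleted segment, and the livers hold cells in which Albumin-Cre is not active. Activity of the receptor, levels of cyclic AMP, phosphorylation and protein were not measured in these files. Genotype cannot be told apart from presence of the Cre transgene, because every LKO mouse carried it and no control did.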

How the data were processed

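Poly-A RNA of 16 mouse livers, 4 per group, was sequenced as read pairs. The authors aligned them to GRCm39 with STAR 2.7.1a and counted them per gene, by strand, with featureCounts of Subread 2.0.6, and deposited raw counts of 41079 genes per library. Counts were filtered with filterByExpr (minimum count 10, leaving 16742 genes), normalized by TMM and fitted together as 4 groups in edgeR 4.0.16 (R 4.3.3), by its quasi-likelihood test, p-values being adjusted by Benjamini-Hochberg over all genes tested; the script was tested on simulated data. CPM used TMM-scaled library sizes, log2 CPM a prior count of 2, and RPKM the exon length of the table. Alternatives were DESeq2 1.42.0, limma-voom with quality weights (limma 3.58.1), RLE or upper-quartile normalization, no filter or at least 10 counts in every library, only the libraries compared, the replicate number as a block, and leaving out each liver. Named are the 10 members, most called genes and the 3 of highest RPKM of each of 9 further pathway lists, the 5 genes most like Gcgr, and Pck1, G6pc1, Ppargc1a and Pde4b. The members and lists were chosen with earlier results of these data known. Exons are from GENCODE, promoters from RefSeq, primers from the study's designs. qPCR, western blots and other measurements of the study were not analysed here.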

Additional observations from a re-analysis of the deposited data

Results flagged for a closer look

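In each group of 4 livers, the gap between the highest or the lowest liver and the nearest other was divided by the range of the group, and the group is given here where this ratio was past Dixon's critical value at the 95% level. This was done for 20 genes and 12 marker sums, 128 groups in all, of which 13 were past it; chance gives about 1 in 20. The cause was not tested for any of them.

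Gcgr in male CRE- had a ratio of 0.949, with replicate 3 at 127.3 CPM and the others between 189.6 and 192.9 CPM. Creb1 in female LKO had 0.973, with replicate 1 at 25.1 CPM above the others at 14.1 to 14.4 CPM. Rapgef4 in male CRE- had 0.988, with replicate 4 at 65.8 CPM under the others at 110.2 to 110.8 CPM. Igfbp1 in female LKO had 0.918, with replicate 4 at 728.3 CPM above the others at 62.8 to 117.1 CPM. Pck1 in female LKO had 0.967, with replicate 2 at 2765 CPM above the others at 760.2 to 826.2 CPM. G6pc1 in male CRE- had 0.862, with replicate 4 at 194.2 CPM under the others at 235.5 to 242.1 CPM.

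Of the summed markers, neutrophil markers in female LKO had a ratio of 0.898, with replicate 4 at 574.6 CPM. B and plasma cell markers in male LKO had 0.873, with replicate 4 lowest at 33.8 CPM. Endothelial markers in female CRE- had 0.894, with replicate 1 lowest at 159.7 CPM. Islet alpha cell markers in female LKO had 0.983, with replicate 2 at 2.99 CPM. Acinar markers had 0.939 in male CRE-, with replicate 2 at 132.4 CPM, and 0.992 in female CRE-, with replicate 2 at 533.5 CPM. Skeletal muscle markers in female LKO had 0.961, with replicate 2 at 13.4 CPM.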

How the results depend on the processing

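The counts of called genes moved with the tool and with single livers; the cause was not tested. The count in males was 76 by edgeR, 339 by DESeq2 and 148 by limma-voom, and ran from 26 to 111 over the fits that each left out 1 liver. In females it was 710, with 1816 by DESeq2, 1976 by limma-voom and 119 with females fitted alone, and ran from 87 to 1310. The interaction had 0, with 371 by DESeq2, 29 by limma-voom and 12 without a filter, and ran from 0 to 14. The average of the sexes had 478, with 1034 by DESeq2 and 857 by limma-voom, and ran from 299 to 598. The controls had 154, with 509 by DESeq2, 329 by limma-voom, 249 fitted alone and 78 with at least 10 counts in every library, and ran from 68 to 213.

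Of the 10 genes, 0 were called in males in all 8 other settings and in all 16 fits without 1 liver. In females 1 was called, 2 by DESeq2 and limma-voom, and 0 with upper-quartile normalization, no filter, at least 10 counts in every library or females fitted alone, and from 0 to 1 without 1 liver. The female log2 fold change of Gcgr was -0.87 with upper-quartile normalization, -0.92 without a filter, -0.89 with at least 10 counts in every library and -0.91 with females fitted alone, none of them called, and ran from -1.11 to -0.69 without 1 liver. The male one ran from -0.51 to -0.32 and was called in none. With females fitted alone, the female calls of Sik1, Rapgef4, Pde10a and Igfbp1 were lost as well, at adjusted p-values from 0.0688 to 0.099.

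In limma-voom, values near 0 turned sign for Creb1 in females (-0.16), Crtc2 in males (-0.0404), Ppargc1a in females (-0.19) and Pde10a in males (-0.0038). Without 1 liver, values that turned sign ran from -0.0414 to 0.17 for Gcgr between the controls, -0.20 to 0.13 for Adcy9 in females, -0.059 to 0.11 for Prkaca in males, -0.30 to 0.0693 for Creb1 in males, -0.10 to 0.21 for Creb1 in females, -0.12 to 0.14 for Crtc2 in males, -0.029 to 0.22 for Crtc2 in females, -0.21 to 0.30 for Ppargc1a in females, -0.18 to 0.61 for Pde10a in males and -0.53 to 1.27 for the interaction of Igfbp1.

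No label ties livers by replicate number, and not every same-numbered pair deviated together, so the numbers were not taken to pair the livers. Deviations of same-numbered livers correlated at -0.25 to 0.332 over 24 pairs, 5 of them under 0, and those of other pairs at -0.292 to 0.344 over 72, 44 of them under 0. Set against the 4 livers of another group, a liver correlated best with its own number in 24 of 48 cases, a hint from the data and not from the design. With the replicate number as a block, 1244 genes were called in females and 2 of the 10, Gcgr and Prkaca (adjusted p = 0.0248); Gcgr averaged over the sexes was called (0.039), as was Sds (0.0486), and the block changed no other call of a named gene.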
